A study of Canis lupus familiaris and Dasypus novemcinctus and Ornithorhynchus anatinus with 3 samples.

Results

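FOXO1, HAND2, GATA2, NR2F2, BMP2 and WNT4 are transcription factors and secreted signals of decidualisation. They were listed for that known role, with earlier results of these data known, and found by upper-case gene symbol in the deposited gene tables. All 6 were listed in dog, 5 in armadillo (not WNT4) and 4 in platypus (not HAND2 or GATA2), among 17441 distinct symbols over the 3 tables. A symbol missing from a table was not analysed there and was not taken as 0, and FOXO1, NR2F2 and BMP2 were the 3 genes present in every table. The samples were messenger RNA from the lining of the uterus in pregnancy (endometrium) of dog (Canis lupus familiaris) and armadillo (Dasypus novemcinctus), which are placental mammals, and of platypus (Ornithorhynchus anatinus), an egg-laying mammal. Each species had 1 library, and its animals, stage of pregnancy and strain are not given in the labels.

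In decidualisation, the fibroblast-like stromal cells of the endometrium turn, under progesterone, into rounded secretory cells around the implanting embryo. Work in human cells and in mice has placed these 6 genes in a chain that joins hormone receptors in epithelium and stroma to signals passed between the cell layers. FOXO1 acts with the progesterone receptor on genes such as those for prolactin and IGFBP1, GATA2 supports expression of that receptor, NR2F2 (COUP-TFII) receives the hedgehog signal of the epithelium, HAND2 holds down fibroblast growth factors of the stroma, and BMP2 and WNT4 are ligands that carry the response through the stroma. All of these genes also work elsewhere: NR2F2 in venous endothelium, GATA2 in endothelium and blood cells, and HAND2 in the developing heart and limb.

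The tables held 13625465 reads in 19290 dog genes, 13218476 in 12335 armadillo genes and 2243556 in 18481 platypus genes. Levels are reads per 1000000 of that total (CPM) with an exact Poisson 95% interval, and folds are ratios of CPM with an exact 95% interval conditional on both counts. These intervals cover counting error only, and with 1 library per species no difference has a replicate check or a p-value. A gene passed the 4-fold limit where the ratio of CPM + 1 reached 4 and the higher library reached 5 CPM. A gene model that is longer in 1 species collects more reads there, which is part of any fold between species, and in whole tissue fewer cells of a type and less RNA per cell cannot be told apart. In the dog table EEF2 and RPL11, and in the platypus table RPS15 and RPS25, which every cell uses, were listed at 0, so that for a gene at 0 in dog or platypus no fold is given. Whether genes with few reads had lost reads in the same way was not tested, and the intervals do not cover it.

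FOXO1, GATA2 and NR2F2 did not pass the 4-fold limit between any libraries that listed them, whereas HAND2 was higher in dog than in armadillo and BMP2 was far lower in dog than in either other species. Between dog and armadillo, 2 of the 5 matched genes passed the 4-fold limit, 1 in each direction, where 25.8% of all 8914 matched genes did so. Of all matched genes 12.6% were higher in dog and 13.3% higher in armadillo. Between dog and platypus 1 of 4 passed, with the lower level in dog, against 41.9% of 9076 genes (32.0% higher in dog and 9.91% higher in platypus). Between armadillo and platypus 0 of 3 passed, against 47.1% of 7296 genes (36.1% higher in armadillo and 11.0% higher in platypus). These shares include genes listed at 0: without them 2511 of 5965 genes passed for dog over platypus in place of 3803, and 2291 of 5393 for armadillo over platypus in place of 3439, while with 2 CPM required in both libraries 1679 and 1588 genes passed. The counts given for gene lists further on stand beside the same shares, 25.8%, 41.9% and 47.1%. The median log2 ratio of CPM + 1 over the matched genes of the group was -0.06 for dog over armadillo, -0.04 for dog over platypus and 0.50 for armadillo over platypus. Over all matched genes it was 0.00, 0.61 and 1.06 in the same comparisons. These medians depend on low genes and genes at 0: over genes with 2 CPM or more in both libraries they were 0.31, 0.52 and 0.26.

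**Figure D1:**
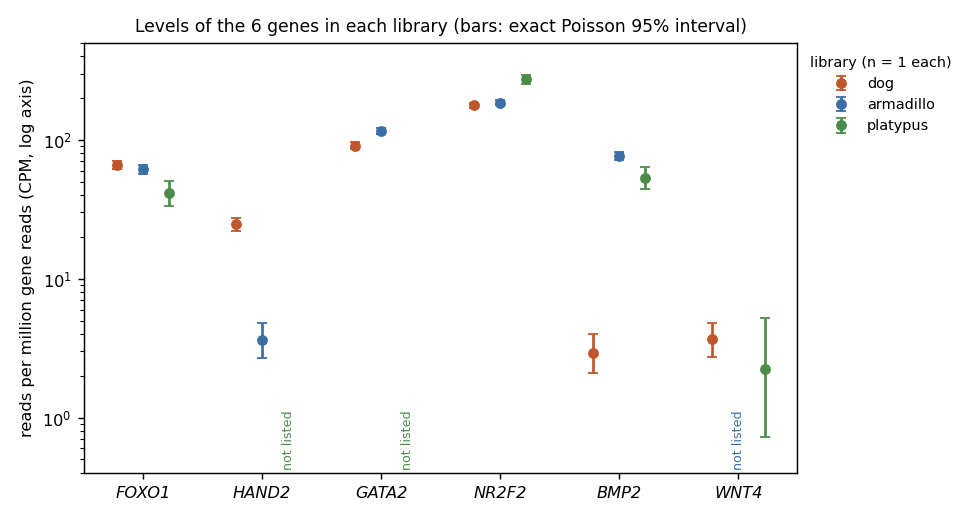
CPM (log axis) of the 6 genes in the dog, armadillo and platypus libraries, 1 library each, with exact Poisson 95% intervals; "not listed" marks a symbol missing from that table. NR2F2 lies between 178 and 272 CPM in all 3 libraries, whereas BMP2 is at 2.94 CPM in dog against 76.3 CPM in armadillo and 53.5 CPM in platypus.

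FOXO1 (ENSCAFG00000005965 in dog, ENSDNOG00000011631 in armadillo, ENSOANG00000015514 in platypus) is the forkhead factor that, in human stromal cells, accumulates in the nucleus as decidualisation starts. It stood at 66.0 CPM in dog (899 reads, 95% interval 61.7 to 70.4), 61.3 CPM in armadillo (810 reads, 57.1 to 65.6) and 41.5 CPM in platypus (93 reads, 33.5 to 50.8). The dog and armadillo intervals overlapped, and platypus lay below both. Dog was 1.08-fold (95% interval 0.978 to 1.19) of armadillo and 1.59-fold (1.28 to 1.99) of platypus, and armadillo was 1.48-fold (1.19 to 1.85) of platypus. These small differences depended on scaling, since with median-of-ratios factors the dog-to-armadillo ratio was 0.861 and the dog-to-platypus ratio 1.06.

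NR2F2 (ENSCAFG00000008076, ENSDNOG00000011522 and ENSOANG00000009426) is an orphan nuclear receptor that in the mouse uterus is found in the stroma. It stood at 178 CPM in dog (2419 reads, 95% interval 171 to 185), 185 CPM in armadillo (2439 reads, 177 to 192) and 272 CPM in platypus (610 reads, 251 to 294). Platypus was the highest and the intervals of dog and armadillo overlapped. The ratios were 0.962 (0.909 to 1.02) for dog over armadillo, 0.653 (0.597 to 0.715) for dog over platypus and 0.679 (0.621 to 0.743) for armadillo over platypus. With median-of-ratios factors they were 0.769, 0.434 and 0.564 in the same order. Its paralog NR2F1 had 45 reads (3.30 CPM) in dog, and NR2F6, a more distant relative, stood at 98.3 CPM in dog and 296 CPM in platypus.

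GATA2 (ENSCAFG00000004143 in dog and ENSDNOG00000008677 in armadillo), a zinc finger factor upstream of the progesterone receptor in the mouse uterus, stood at 90.5 CPM in dog (1233 reads, 85.5 to 95.7) and 115 CPM in armadillo (1520 reads, 109 to 121). The dog level was 0.787 (0.729 to 0.849) of the armadillo level, so the intervals did not overlap while the difference lay well inside the 4-fold limit. With median-of-ratios factors this ratio was 0.629. Among its family, GATA3, a factor of trophoblast and epithelia, had 221 reads (16.2 CPM) in dog and 2 reads (0.891 CPM) in platypus, a ratio of 18.2 (95% interval 4.98 to 151). GATA6 stood at 26.3 CPM in platypus, and GATA1, the factor of red cells, was listed at 0 in dog.

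HAND2 (ENSCAFG00000007858 in dog and ENSDNOG00000019363 in armadillo), a basic helix-loop-helix factor induced by progesterone in mouse stroma, stood at 24.7 CPM in dog (336 reads, 22.1 to 27.4) and 3.63 CPM in armadillo (48 reads, 2.68 to 4.81). Dog was 6.79-fold (95% interval 5.01 to 9.39) higher, and 12.6% of all matched genes passed the 4-fold limit in that direction. The ratio was 5.43 with median-of-ratios factors. With a larger read total for dog that was recovered from its relative abundance column the ratio was 4.19, and HAND2 then missed the limit because of the pseudocount. Its close relative HAND1, a factor of heart and trophoblast, had 21 reads (1.54 CPM) in dog, 100 reads (7.57 CPM) in armadillo and 26 reads (11.6 CPM) in platypus, so that between dog and armadillo the HAND genes differed in opposite directions.

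BMP2 (ENSCAFG00000005897, ENSDNOG00000011365 and ENSOANG00000008412), a ligand of the bone morphogenetic protein family that mouse stroma needs to decidualise, stood at 2.94 CPM in dog (40 reads, 2.10 to 3.998), 76.3 CPM in armadillo (1008 reads, 71.6 to 81.1) and 53.5 CPM in platypus (120 reads, 44.3 to 64.0). Dog alone was low, and its interval lay far below those of both other libraries. It was 26.0-fold (95% interval 18.9 to 36.6) lower in dog than in armadillo, a size of log2 difference larger than that of 94.9% of matched genes, and 18.2-fold (12.6 to 26.8) lower in dog than in platypus, larger than 79.0% of genes. In these directions 13.3% of genes passed the limit as higher in armadillo and 9.91% as higher in platypus. Armadillo over platypus was 1.43 (1.18 to 1.74). BMP2 passed the limit as lower in dog under all 9 alternative settings. Only the scalings among them can change the ratio, and with these BMP2 was between 24.8-fold and 42.1-fold lower in dog than in armadillo.

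WNT4 (ENSCAFG00000014661 in dog and ENSOANG00000009520 in platypus), a WNT ligand that lies downstream of BMP2 in mouse and human stromal cells, had 50 reads in dog (3.67 CPM, 2.72 to 4.84) and 5 reads in platypus (2.23 CPM, 0.724 to 5.20). The intervals overlapped, and the ratio of 1.65 had a wide interval (0.661 to 5.29) because of the 5 platypus reads. At this depth a difference between dog and platypus was not detectable.

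**Figure D2:**
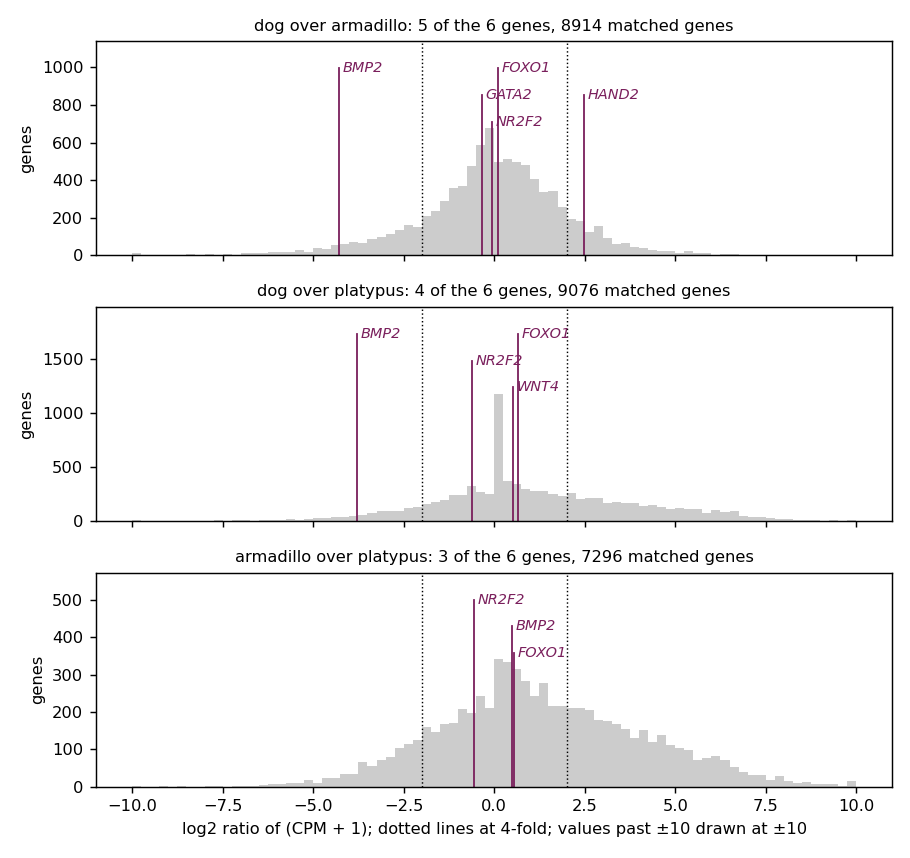
Distribution of the log2 ratio of (CPM + 1) over all matched genes (grey, number of genes per bin) for dog over armadillo, dog over platypus and armadillo over platypus, with the matched genes of the group as vertical lines and the 4-fold limit as dotted lines. BMP2 lies at -4.29 and -3.79 in the comparisons with dog and at 0.50 between armadillo and platypus, HAND2 lies at 2.47, and the other lines lie inside the dotted limits.

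Levels of different genes can be set against each other only per length, which was possible in dog, where the deposited columns give back the gene model lengths. The models had 1986 bases for FOXO1, 636 for HAND2, 1443 for GATA2, 3133 for NR2F2, 1194 for BMP2 and 978 for WNT4. As reads per kilobase of model and per 1000000 reads of the library (RPK/M), GATA2 came first at 62.7, followed by NR2F2 at 56.7, HAND2 at 38.8 and FOXO1 at 33.2, with WNT4 at 3.75 and BMP2 at 2.46. The 4 transcription factors thus stood above the median of 12.6 for the 15084 dog genes with reads, and both ligands stood below it. The largest step was between FOXO1 and WNT4, at 8.85-fold (95% interval 6.66 to 12.0), while WNT4 and BMP2 at the low end could not be separated (1.53-fold, 0.987 to 2.37).

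**Figure D3:**
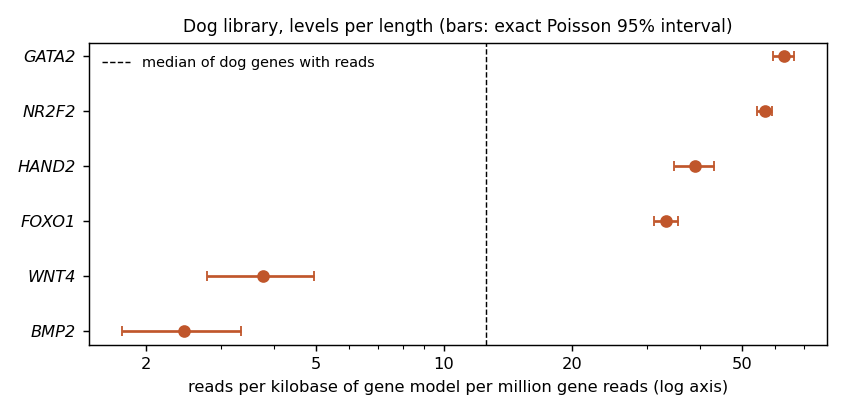
Reads per kilobase of gene model, scaled to the library total (RPK/M, log axis), of the 6 genes in the dog library, with exact Poisson 95% intervals and the median of dog genes with reads as a dashed line at 12.6. The transcription factors lie between 33.2 and 62.7 and the ligands WNT4 and BMP2 at 3.75 and 2.46.

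Other ligands of the families of BMP2 and WNT4 were measured too. BMP6 stood at 20.6 CPM in dog, 113 CPM in armadillo and 9.36 CPM in platypus, 5.49-fold (95% interval 4.83 to 6.26) lower in dog than in armadillo and 12.1-fold (7.88 to 19.6) higher in armadillo than in platypus. BMP5 had 1 read in dog and 746 reads (56.4 CPM) in armadillo, and BMP7 stood at 19.97 CPM in armadillo and 1.78 CPM (4 reads) in platypus. Within dog, BMP6 had 40.2 RPK/M against 2.46 for BMP2. Among the WNT ligands of dog, WNT7B, an epithelial WNT, had 422 RPK/M, against 3.75 for WNT4, 3.87 for WNT7A and 1.95 for WNT6. WNT2 had 1 read in dog and 955 reads (72.2 CPM) in armadillo, and WNT5A stood at 8.40 CPM in armadillo and 27.6 CPM in platypus. Of the paralogs of the 6 genes as a list, 0 of 6 matched members were higher and 3 lower in dog against armadillo past the 4-fold limit, with a median log2 ratio of -2.08. For dog over platypus the counts were 1 higher and 1 lower of 8 (median 1.05), and for armadillo over platypus 3 higher and 0 lower of 6 (median 1.69, and 2.51 without WNT11, which was listed at 0 in platypus, or 1.08 with it set to 3 reads).

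Of 9 matched receptors of BMP2, SMAD proteins that carry its signal and target genes, 1 was higher and 1 lower in dog against armadillo, where 25.8% of all genes passed, with a median log2 ratio of -0.15. BMPR1A, a type I receptor, stood at 25.8 CPM in dog, 79.4 CPM in armadillo and 27.6 CPM in platypus, and the type II receptor gene BMPR2 at 80.7, 95.2 and 34.8 CPM in the same order. BMPR1B, another type I receptor, stood at 15.0 CPM in dog (205 reads) and 11.6 CPM in platypus (26 reads), but had 1 read in armadillo, a ratio of 199 (95% interval 35.3 to 7893) for dog over armadillo, and armadillo was 153-fold (25.2 to 6280.3) lower than platypus. ACVR1 was 6.55-fold (5.88 to 7.30) lower in dog than in platypus and 5.89-fold (5.30 to 6.55) lower in armadillo than in platypus. ID1, a gene that BMP signals switch on, stood at 18.1 CPM in dog and 171 CPM in armadillo, 9.44-fold (8.28 to 10.8) lower in dog. ID2 and ID3 were not listed in dog. SMAD6 and SMAD7 of the same list went the other way, inside the 4-fold limit. SMAD6 stood at 74.1 CPM in dog and 31.5 CPM in armadillo, a ratio of 2.35 (2.10 to 2.64). SMAD7 stood at 52.0 and 41.2 CPM, a ratio of 1.26 (1.13 to 1.41) that changed direction with the larger dog total. Against platypus the counts of this list were 0 higher and 1 lower of 9 for dog (median -0.09) and 1 higher and 2 lower of 10 for armadillo (median -0.45, and -0.57 without ID3, which was listed at 0 in platypus).

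Of 4 antagonists of the BMP pathway matched between dog and armadillo, 3 were lower in dog past the limit, with a median log2 ratio of -3.06. The decoy receptor gene BAMBI stood at 3.01 CPM in dog, 118 CPM in armadillo and 44.1 CPM in platypus, 39.2-fold (95% interval 28.8 to 54.9) lower in dog than in armadillo and 14.7-fold (10.1 to 21.7) lower in dog than in platypus. FST (follistatin) was 13.7-fold (11.5 to 16.5) and CHRD (chordin) 6.02-fold (4.9998 to 7.30) lower in dog than in armadillo. FSTL1, the remaining gene, stood at 142 CPM in dog and 473 CPM in armadillo, and passed the limit with median-of-ratios or upper-quartile factors and with the larger dog total. Between dog and platypus 0 were higher and 1, BAMBI, was lower of 5 (median -1.24), with CHRD at a ratio of 1.81 (1.003 to 3.59) and FSTL1 at 0.931 (0.830 to 1.05). Between armadillo and platypus 2 were higher and 0 lower of 4 (median 1.87), namely CHRD at 10.9-fold (6.21 to 21.2) and FST at 4.46-fold (3.49 to 5.78), and FST missed the limit with median-of-ratios or upper-quartile factors.

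Genes around WNT4 differed in both directions. Of 8 matched between dog and armadillo, 1 was higher and 2 were lower in dog, with a median log2 ratio of -0.18. The secreted WNT inhibitor gene DKK1 stood at 7.49 CPM in dog and 75.5 CPM in armadillo, and WIF1, another inhibitor, had 1 read in dog and 396 reads (30.0 CPM) in armadillo. AXIN2, a gene that WNT signals switch on, was 6.08-fold (95% interval 4.95 to 7.53) higher in dog at 49.2 against 8.09 CPM in armadillo, and missed the limit with the larger dog total. SFRP4, an inhibitor that binds WNT ligands, stood at 190 CPM in dog, 89.0 CPM in armadillo and 3.57 CPM (8 reads) in platypus. FZD5, a WNT receptor gene, was 28.7-fold (20.7 to 40.7) lower in dog than in platypus. The counts were 2 higher and 1 lower of 10 for dog over platypus (median -0.15, and -0.82 without DKK1, listed at 0 in platypus) and 5 higher and 1 lower of 9 for armadillo over platypus (median 2.04, and 1.37 without DKK1).

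**Figure D4:**
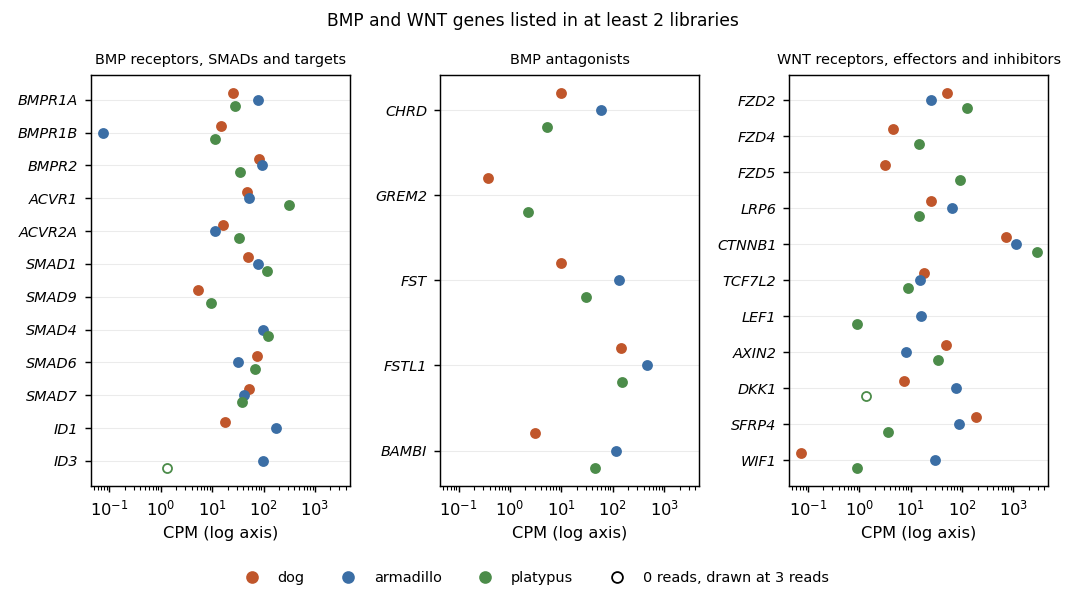
CPM (log axis) of the BMP receptor, SMAD and target genes, the BMP antagonists and the WNT pathway genes that were listed in at least 2 of the dog, armadillo and platypus libraries; open circles mark 0 reads, drawn at the level of 3 reads. BAMBI, FST and CHRD lie 6.02-fold to 39.2-fold lower in dog than in armadillo, and BMPR1B has 1 read in armadillo.

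The list around HAND2 held fibroblast growth factors (FGF) and their receptors. FGF9, a factor that HAND2 holds down in mouse stroma, stood at 32.2 CPM in dog (439 reads), 0.303 CPM in armadillo (4 reads) and 17.8 CPM in platypus (40 reads), so that both HAND2 and FGF9 were higher in dog than in armadillo. The FGF9 ratio was 106 (95% interval 41.3 to 393). FGF18, another such factor, stood at 16.1 CPM in dog, 9.53 CPM in armadillo and 0.446 CPM (1 read) in platypus, and FGF1 at 0.367 CPM (5 reads), 7.11 CPM and 11.1 CPM. Between dog and armadillo FGF1 thus went the opposite way to FGF9, 19.4-fold (8.02 to 61.1) lower in dog. The receptor gene FGFR1 was 8.94-fold (8.01 to 10.01) lower in dog than in armadillo and 7.60-fold (6.59 to 8.76) lower in dog than in platypus. FGFR2, whose epithelial form receives stromal FGF, stood at 343, 248 and 49.9 CPM in dog, armadillo and platypus. In dog against armadillo 1 gene was higher and 2 were lower of 7 (median log2 ratio 0.47), in dog against platypus 3 were higher and 3 lower of 7 (median 0.82), and in armadillo against platypus 3 were higher and 2 lower of 8 (median -0.17). With the larger dog total the median of dog over armadillo was -0.20. FGF10 was listed at 0 in dog, and the first of these medians is 0.59 and the second 1.79 without it.

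The hedgehog pathway reaches NR2F2 in the mouse uterus. PTCH1, the hedgehog receptor and a target of its signal, was 11.6-fold (95% interval 10.1 to 13.3) higher in dog, at 199 against 17.2 CPM in armadillo, and was listed at 0 in platypus. The hedgehog factor genes GLI2 and GLI3 went the other way, 9.85-fold (6.70 to 15.0) and 6.26-fold (4.72 to 8.43) lower in dog than in armadillo, and HHIP, a hedgehog-binding inhibitor, was listed at 0 in dog with 16.1 CPM in armadillo and 26.7 CPM in platypus. GLI1 was also lower in dog, at 1.10 CPM (15 reads) against 4.31 CPM (57 reads) in armadillo. Its ratio was 0.255 (0.134 to 0.457), and it did not pass the limit. The ligand gene IHH had 14 reads in dog (1.03 CPM) and 1 read in platypus, and SMO, the signal transducer, was 5.66-fold (4.94 to 6.47) lower in dog than in platypus. Over this list 1 gene was higher and 3 were lower of 7 in dog against armadillo (median log2 ratio -1.34), 1 higher and 2 lower of 6 in dog against platypus (median -0.03) and 3 higher and 0 lower of 5 in armadillo against platypus (median 2.27). These counts include genes listed at 0: HHIP in both comparisons of dog, and PTCH1 in both comparisons with platypus. GLI3, also listed at 0 in platypus, is among them for armadillo over platypus. Without genes listed at 0 the medians were -1.18 over 6 genes, -0.55 over 3 and -0.70 over 3, so the last changed sign.

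Of 17 hormone receptors and other transcription factors that work with these genes, 9 were listed under a usable symbol in at least 2 tables. PGR, the progesterone receptor, stood at 291 CPM (653 reads, 95% interval 269 to 314) in platypus, and a dog gene with the receptor's UniProt entry name PRGR_CANFA, looked up after the tables were seen, stood at 16.4 CPM (223 reads, 14.3 to 18.7), 17.8-fold (15.3 to 20.8) lower in dog. ESR1, the oestrogen receptor, was likewise 116-fold (96.2 to 142) lower in dog, at 8.22 against 956 CPM in platypus. KLF9, a factor that interacts with the progesterone receptor, had 3 reads in dog (0.220 CPM), 459 in armadillo (34.7 CPM) and 11 in platypus (4.90 CPM). STAT3, STAT5A and STAT5B, which carry cytokine signals, stood at 257, 42.3 and 86.2 CPM in dog and at 349, 73.2 and 105 CPM in armadillo. HOXA10, a homeobox gene of the uterus, stood at 14.3 CPM in armadillo and 30.8 CPM in platypus. The list held 0 higher and 1 lower of 5 for dog over armadillo (median log2 ratio -0.44), 0 and 1 of 3 for dog over platypus (median -2.27) and 1 and 0 of 5 for armadillo over platypus (median 0.30).

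**Figure D5:**
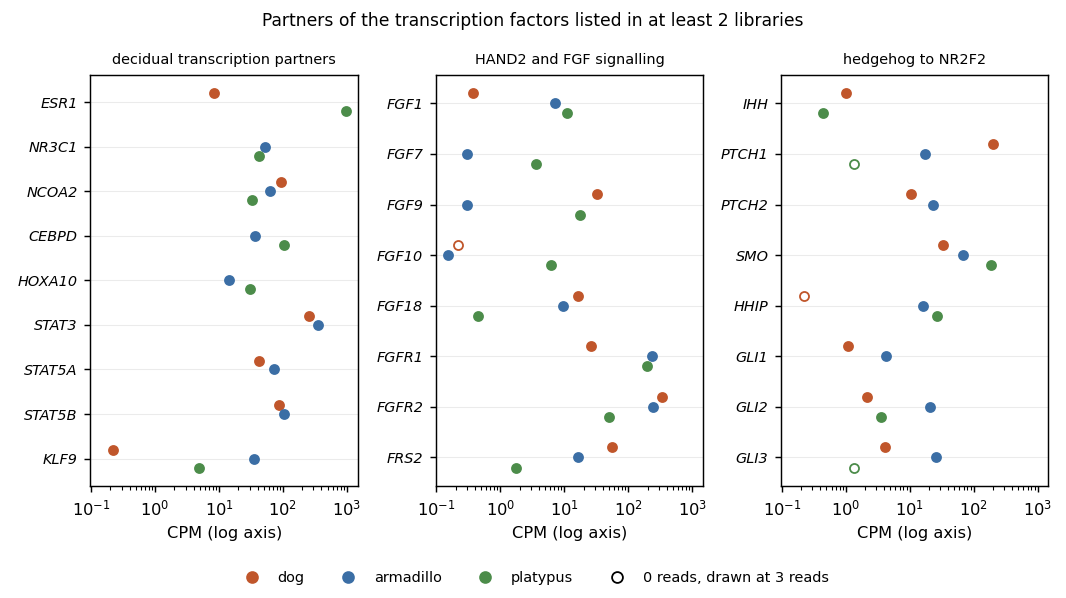
CPM (log axis) of the transcription partners, the FGF genes around HAND2 and the hedgehog genes around NR2F2 that were listed in at least 2 of the dog, armadillo and platypus libraries; open circles mark 0 reads, drawn at the level of 3 reads. FGF9 lies at 32.2 CPM in dog against 0.303 in armadillo, and PTCH1 at 199 against 17.2 CPM.

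Upstream of FOXO1, kinases of the PI3K and AKT pathway keep the protein out of the nucleus, a step that RNA levels do not show. AKT2 stood at 52.1 CPM in dog and 148 CPM in armadillo, and SGK1, a kinase that also acts on FOXO factors, at 134 CPM in armadillo and 410.1 CPM in platypus. FOXO3, the relative of FOXO1, stood at 43.6 CPM in dog, 80.7 CPM in armadillo and 13.4 CPM in platypus, and was 6.04-fold (95% interval 4.20 to 8.99) higher in armadillo than in platypus. Over the list 0 of 3 passed the limit for dog over armadillo (median log2 ratio 0.53, and -0.15 with the larger dog total), and 1 higher and 0 lower of 3 for dog over platypus (median 1.98). The called gene of the second comparison was AKT2, which was listed at 0 in platypus together with BCL2L11, a death gene that FOXO factors switch on, and the only gene without zeros was PIK3CB at a log2 ratio of 0.71.

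Products of decidual cells were set beside the factors. IGFBP1, a FOXO1 target in human stromal cells, was 20.4-fold (95% interval 17.9 to 23.3) higher in dog, at 378 against 18.5 CPM in armadillo, and was listed at 0 in platypus, whereas FOXO1 differed 1.08-fold between dog and armadillo. PRL, the prolactin gene, was listed at 0 in dog and platypus. IL11RA, the interleukin-11 receptor gene needed for decidualisation in mice, was 8.91-fold (6.53 to 12.4) lower in dog than in armadillo. Other genes on the list were higher in platypus: SCARA5, a ferritin receptor gene, had 3 reads in dog and 579 reads (258 CPM) in platypus, and DIO2, a deiodinase that makes active thyroid hormone, was 25.1-fold (18.2 to 35.1) lower in dog than in platypus and 35.4-fold (24.4 to 52.8) lower in armadillo than in platypus. TIMP3, a matrix protease inhibitor gene, was 4.19-fold (3.61 to 4.89) higher in dog than in platypus but missed the limit with median-of-ratios or upper-quartile factors and with the larger dog total, and was 12.2-fold (10.5 to 14.2) higher in armadillo than in platypus. The counts were 1 higher and 1 lower of 7 for dog over armadillo (median log2 ratio -0.21), 3 and 2 of 8 for dog over platypus (median 1.45) and 5 and 1 of 9 for armadillo over platypus (median 3.29), where 25.8%, 41.9% and 47.1% of all genes passed. In platypus PRL, PRLR, IGFBP1, SST, HSD11B1 and IL11RA were listed at 0. TIMP3 was thus the only gene counted as higher than in platypus that had reads in both libraries. Zeros also set the medians against platypus: without genes at 0 they were -4.30 over 3 genes and -1.69 over 4, and with zeros set to 3 reads 0.88 and 2.06.

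Marker genes of cell types were compared in the same libraries. Stromal markers matched between dog and armadillo were COL3A1 and LUM, summed at 626 CPM in dog and 7956 in armadillo, with 0 higher and 1 lower of 2. LUM also passed as lower in dog with median-of-ratios or upper-quartile factors and with the larger dog total. In dog against armadillo, 3 of 3 smooth muscle markers (summed at 119 against 23238 CPM), 3 of 4 endothelial markers (381 against 1271 CPM) and 4 of 7 leukocyte and mast cell markers (18.0 against 265 CPM) were lower in dog, and 4 of 4 epithelial markers (2600 against 558 CPM) were higher, of which KRT7 missed the limit with every scaling but CPM and matched totals. Trophoblast markers were 1 lower of 4 (7.41 against 69.1 CPM). No listed marker was at 0 in dog, and the armadillo table lists no gene at 0. In dog against platypus 4 of 5 epithelial markers were higher (2805 against 28.1 CPM, ST14 at 0 in platypus), 2 of 4 endothelial markers were higher (410.3 against 45.9 CPM, ESAM at 0) and 1 of 3 smooth muscle markers was higher and 2 lower (97.4 against 1436 CPM). Stromal markers were 0 higher and 1 lower of 2 (626 against 1544 CPM), and none of 4 trophoblast or 2 leukocyte markers passed (7.41 against 0.446 CPM and 2.72 against 0 CPM). In armadillo against platypus 4 of 7 stromal markers were higher (27117 against 4434 CPM, THY1 at 0 in platypus), 6 of 6 endothelial markers (3200.2 against 25.9 CPM, KDR, TEK, VWF and ESAM at 0), 2 of 5 epithelial (564 against 29.9 CPM), 2 of 5 trophoblast (69.4 against 0.446 CPM), 1 of 3 leukocyte markers (41.1 against 11.1 CPM) and 2 of 4 smooth muscle markers, with 1 lower (15561 against 12580 CPM). The trophoblast markers TFAP2A and TFAP2C and the leukocyte marker SRGN, which passed in armadillo against platypus, were also listed at 0 in platypus. The part of these cell types in the levels of HAND2, BMP2 and the other genes was not tested.

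The genes whose pattern over the 3 libraries was most like that of each of the 3 genes found in all tables were taken from 4401 candidates by the root mean square difference of log2(CPM + 1), each gene centred on its own mean. For FOXO1 they were ATPAF1 (0.01), PATZ1 (0.03) and ACSF2 (0.04), and for NR2F2 TRIM35 (0.01), NECAP2 (0.02) and EFCAB7 (0.02). For BMP2 they were DEGS1 (0.07; dog 23.8 CPM, armadillo 449 CPM, platypus 303 CPM), SERPINF1 (0.10; 5.21, 118 and 96.7 CPM in that order) and RAB36 (0.10; 1 read, 16.7 and 12.5 CPM). Within 0.25 on this scale lay 181 candidates for FOXO1, 181 for NR2F2 and 15 for BMP2. Candidates needed at least 1 read in every library, so genes at 0 in dog were left out. FOXO1 and NR2F2 differed little between libraries, and patterns of that kind have more neighbours than a pattern with a large step. The counts therefore show nothing particular to these genes. The likeness rests on 3 libraries.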

How the data were processed

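The submitters' processing notes name Bowtie; aligner version, genome builds, annotation and library strand are not given here. For dog the authors deposited estimated counts (mapped bases divided by 34, per the file headers), of which 516 were not whole; these were rounded. Deposited scores of the dog table (mapped bases and a relative abundance) served for length: reads divided by relative abundance and a fitted constant gave lengths whole within 0.1 bases for 100% of 5644 genes above 500 reads. The armadillo and platypus tables hold counts per gene, deposited without scaling. The armadillo table lists no gene at 0; the dog and platypus tables list 4206 and 7828. Lines of totals were left out.

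Genes were matched by symbols that occur once in a table; dog accessions (91) were given symbols from the RefSeq table of UU_Cfam_GSD_1.0. Counts were scaled to CPM of the summed gene counts. Log2 ratios used a pseudocount of 1 CPM. Expressing levels with median-of-ratios factors (0.797 dog, 0.997 armadillo, 1.20 platypus, from 3496 genes that reached 2 CPM in every library) shifts the log2 ratio of CPM by -0.32 for dog over armadillo, -0.59 for dog over platypus and -0.27 for armadillo over platypus, and by less where the pseudocount weighs on a low gene. No molecular identifiers are described, so copies of 1 molecule may count as separate reads. In human HAND2, GATA2 and NR2F2 have antisense neighbours; the tables list 0 of these, and strand could not be separated. A count of 0 allows up to 3 reads (dog 0.220 CPM, armadillo 0.227 CPM, platypus 1.34 CPM).

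The members, the 9 pathway and 6 marker lists and the limits were chosen with earlier results of these data known. Candidates for naming from each list were, per comparison, up to 4 genes with the largest ratios past the limit and reads in both libraries, and genes at 0. Not all candidates are given in the text: FRS2, LEF1, FZD2 and some genes at 0 are left out. Other genes were named for their role after their values were seen. The armadillo and platypus result of the AKT list is not reported here. The fold rule was tried on simulated counts that held counting error and no other variation between libraries. Its changed genes were drawn around higher levels than those of BMP2 in dog or HAND2 in armadillo, so the trial does not cover such low levels. Tools were Python 3.11.15, numpy 2.4.6, scipy 1.17.1, pandas 2.3.3 and matplotlib 3.10.9.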

Additional observations from a re-analysis of the deposited data

How the results depend on the processing

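No paired analysis was possible because each species has 1 library. Scaling (median-of-ratios, upper quartile, totals over genes matched in all tables, a dog total of 22083782 recovered from the relative abundance), pseudocounts of 0.5 and 2 CPM, no floor, 2 CPM required in both libraries and genes at 0 left out were tried, 9 alternatives in all. The number of the 6 genes past the 4-fold limit was the same under 26 of 27 alternatives; with the recovered dog total it was 1 for dog over armadillo, HAND2 being lost at a ratio of 4.19. Some of these alternatives could not change the number: no listed gene of the group was at 0, so leaving out genes at 0 had no effect on it. The sign of the FOXO1 log2 ratio for dog over armadillo changed under 3 of 9 alternatives (ratio 0.664 to 1.13), that of FOXO1 for dog over platypus under 1 (0.982 to 1.59) and that of NR2F2 for dog over armadillo under 1 (0.594 to 1.01). Only the scalings can change the sign of a gene's ratio, and the recovered dog total cannot change armadillo over platypus. Adding rows whose UniProt entry name starts with the gene's own symbol changed none of the 15 levels. Entry names that differ from the symbol were not searched, nor were tables in which the symbol was missing, so reads under such names could have been missed. Over all genes, the count past the limit was 1679 for dog over platypus and 1588 for armadillo over platypus with 2 CPM in both libraries, and 2511 and 2291 without genes at 0, against 3803 and 3439 as reported. The share of these genes that was higher in dog than in armadillo was 48.6% with CPM, 39.0% with median-of-ratios factors and 28.8% with the recovered dog total, and for dog over platypus 76.4%, 67.0% and 65.3%. Without genes at 0 the list medians of armadillo over platypus reversed for hedgehog genes (-0.70) and decidual products (-1.69) and changed sign for leukocyte markers (-1.30), as did that of dog over platypus for decidual products (-4.30). The recovered dog total turned the median of dog over armadillo to -0.15 for the AKT list and -0.20 for the FGF list. For dog over platypus the hedgehog median was 0.03 with matched totals or a pseudocount of 0.5 CPM, and the WNT median 0.01 with a pseudocount of 2 CPM. The 5 platypus reads of WNT4 and the 48 armadillo reads of HAND2 limit those ratios. The causes of these shifts were not tested.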
